A study of Arabidopsis thaliana with 27 samples.

Results

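RNA levels of seedlings labelled *hfr1-101* were compared with those of Col-0 after 1 h of a low red to far-red light ratio (LRFR), in 3 libraries of each, 6 of the 27 RNA-seq libraries of a study of Arabidopsis thaliana light responses. The 6 libraries were taken by their genotype and light labels, with no use of a measured value. All were made from pools of whole 7-day-old seedlings that grew in a high red to far-red ratio (HRFR) and received 1 h of LRFR at the end of that time. Beside them stood Col-0 and *hfr1-101* seedlings of the same age kept in HRFR or given 25 h of LRFR, and the triple mutant *pif457*, which is mutated in *PIF4*, *PIF5* and *PIF7*, in the same 3 light conditions, with 3 libraries per group. The sources used here do not describe the lesion of *hfr1-101*, and no second *hfr1* allele or complemented line was among the samples, so that the mutated gene, other differences carried by this line and differences carried by the Col-0 seedlings cannot be told apart.

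Light reflected by neighbouring plants is poor in red and rich in far-red light. It inactivates phytochrome B, which releases the PHYTOCHROME INTERACTING FACTORs (PIFs), bHLH transcription factors that turn on growth and auxin genes. HFR1 is an atypical HLH protein that forms dimers with PIFs that do not bind DNA, and its own gene is turned on by shade, so that it is known as a brake on the shade response. The comparison addresses which transcripts differ when this brake is mutated, 1 h into shade.

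The 6 libraries held 25.2 to 28.4 M reads in genes, and over the 27 libraries the totals lay between 24857067 and 34863803. Of 34262 genes, 20887 passed a filter on low counts and were tested. Levels are given in CPM, counts of a gene relative to all reads in genes of its library after TMM scaling, and differences as log2 fold changes (log2FC, *hfr1-101* over Col-0) with their standard error. A gene is called where the Benjamini-Hochberg adjusted p of edgeR's quasi-likelihood test over all tested genes was below 0.05. On the first principal axis of the deviations from the group means, replicate 1 of Col-0 in HRFR and replicate 1 of Col-0 after 25 h of LRFR lay far out at -32.1 and -38.5, while the other 25 libraries lay between -16.3 and 23.5. Among the 6 libraries compared here, Col-0 replicate 3 stood apart on the second axis, at -26.6 against -8.68 to 14.3 for the other 5.

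The *HFR1* transcript itself (AT1G02340, chromosome 1, positions 465616 to 467880 of TAIR10.1) was not lower in the libraries labelled *hfr1-101*. It stood at 92.1, 89.9 and 138 CPM in Col-0 and at 107, 122 and 144 CPM in *hfr1-101* at LRFR 1 h. The groups overlapped and the gene was not called (log2FC 0.22, SE 0.14, edgeR adjusted p = 0.588). In HRFR it stood at 18.4, 13.6 and 14.8 CPM in Col-0 and at 20.3, 19.6 and 19.6 CPM in *hfr1-101*, so that both genotypes had several times more of it at LRFR 1 h. At LRFR 25 h it stood at 143, 152 and 133 CPM in Col-0 and at 226, 190 and 218 CPM in *hfr1-101*. In these 2 light conditions it was higher in *hfr1-101* without overlap and was not called (log2FC 0.34, edgeR adjusted p = 0.899 in HRFR, and 0.57, adjusted p = 0.115 at LRFR 25 h). The level of the transcript is therefore no check of the genotype label here, since a lesion that leaves the RNA in place would give the same reading. Of the 10 annotated neighbours of *HFR1*, 5 on either side, 8 were tested and none was called. Within 1 Mb of *HFR1*, 2 of 376 tested genes were called, or 0.532%, against 0.177% of all tested genes. These were *AT1G01670* at a distance of 220 kb and *AT1G04000* at 560 kb.

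At LRFR 1 h 37 genes were called, 0.177% of those tested. Of these, 29 (0.139%) were higher and 8 (0.0383%) lower in *hfr1-101*, and 26 differed by an absolute log2FC above 0.6. They are described in 2 sets, by whether the gene was also called in HRFR, which is a sorting and not a test of a difference between light conditions. One set of 21 genes was not called in HRFR, with 18 higher and 3 lower, and held known shade genes and genes of hormone pathways, whose differences were small (median absolute log2FC 0.593). In 7 of these 21 the genotypes did not overlap in HRFR either, on the same side as at LRFR 1 h. The share of all tested genes without overlap in HRFR was not worked out, so 7 of 21 has no background here. The other set of 16 genes was called with the same sign in HRFR, where 17 genes (0.0814%) were called in all, 12 higher (0.0575%) and 5 lower (0.0239%), and held few genes of known function, whose differences were large (median absolute log2FC 3.49). In all 37 the libraries of the 2 genotypes did not overlap, which held for 14.1% of all tested genes.

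The count of calls moved with the libraries and terms in the fit. It was 20 (16 of them among the 37) when only the 6 libraries were fitted. With the replicate number added to that fit as a block it was 671 (with all 37 among them). It was 111 (with all 37 among them) without the 2 Col-0 libraries, of HRFR and of LRFR 25 h, that lay far out, an alternative chosen after seeing the data. The count was 21 without Col-0 replicate 1, Col-0 replicate 2 or *hfr1-101* replicate 3.

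**Figure D1:**
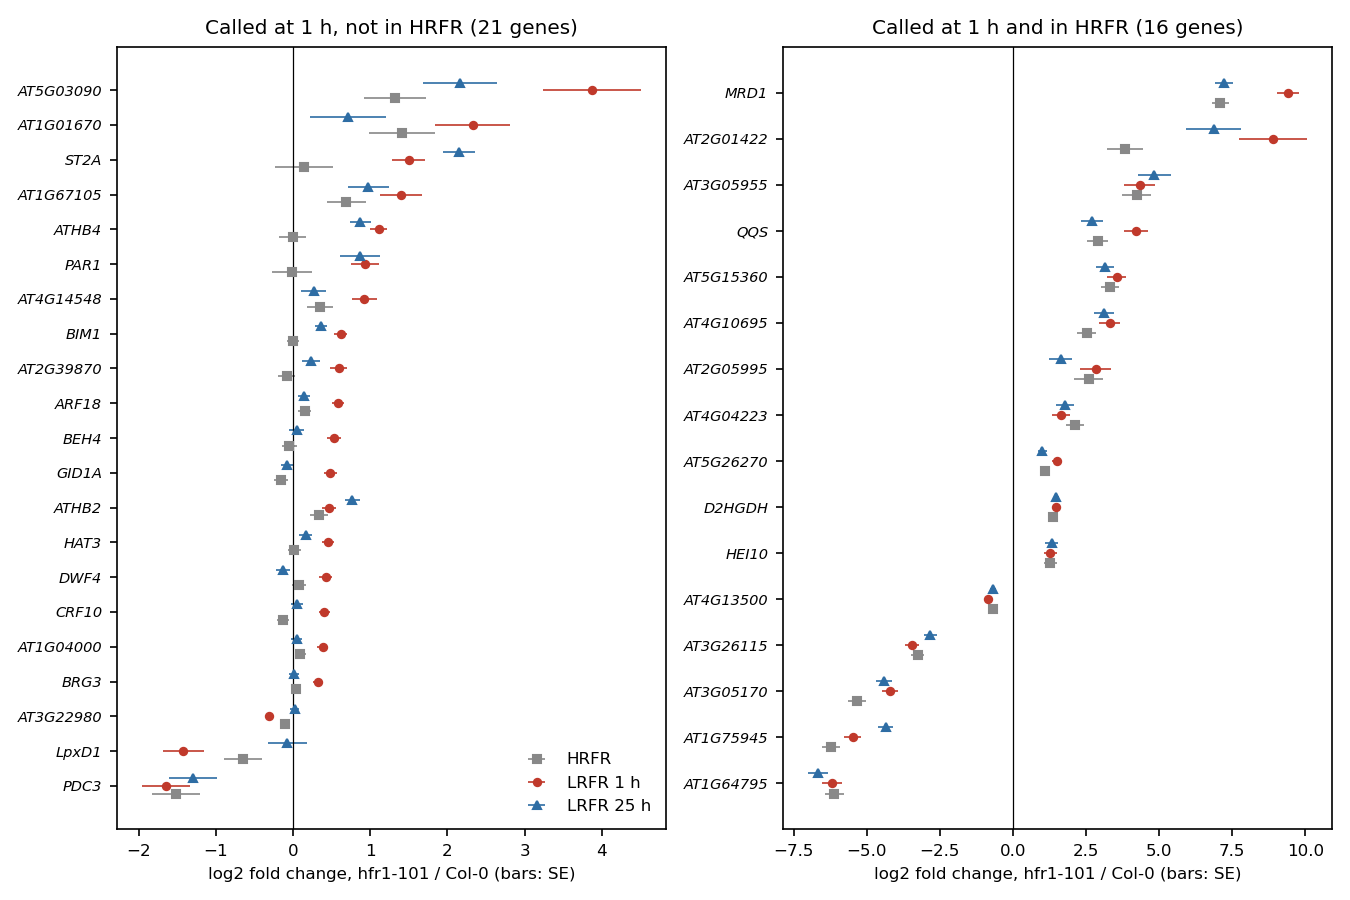
Log2 fold change of *hfr1-101* over Col-0 (x axis, bars are the standard error) in HRFR (grey squares), at LRFR 1 h (red circles) and at LRFR 25 h (blue triangles) for the 21 genes called at LRFR 1 h and not in HRFR (left) and the 16 called in both (right). In the right panel the 3 values of each gene lie on the same side of 0, while *ATHB4*, *PAR1* and *BIM1* in the left panel lie near 0 in HRFR and between 0.62 and 1.11 at LRFR 1 h.

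Among the genes of the first set were 3 of the 10 tested genes of the HD-ZIP class II family, against 0.139% of all tested genes called higher. The family encodes homeodomain-leucine zipper proteins that promote elongation in shade. *ATHB4* (AT2G44910, listed as HB4, chromosome 2, 18517656 to 18519731) showed the largest difference of the 3. At LRFR 1 h its level was 22.6, 23.2 and 30.6 CPM in the Col-0 libraries, and in *hfr1-101* it was 47.7, 61.4 and 55.6 CPM. Every *hfr1-101* library stood above every Col-0 library, and the gene was called (log2FC 1.11, SE 0.11, edgeR adjusted p = 1.09e-06). In HRFR the means of the genotypes were nearly the same, 1.70 CPM in Col-0 and 1.69 CPM in *hfr1-101*, well below the LRFR 1 h level of either genotype.

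The related gene *ATHB2* (AT4G16780, listed as HB-2), the classical marker of this response, had the highest level of the 3. It stood at 141, 140 and 186 CPM in Col-0 and at 202, 214 and 229 CPM in *hfr1-101* (log2FC 0.47, SE 0.09, edgeR adjusted p = 0.0284). The groups did not overlap, though Col-0 replicate 3 lay closer to the *hfr1-101* libraries than to the other Col-0 libraries. *HAT3* stood at 22.9, 23.6 and 27.8 CPM in Col-0 and at 31.2, 34.0 and 36.9 CPM in *hfr1-101* (log2FC 0.46, edgeR adjusted p = 0.00448). All 10 tested HD-ZIP II genes had a log2FC above 0, from 0.09 to 1.11, with a median of 0.19 against 0.0088 for all tested genes. The 7 that were not called included *HAT2*, at 0.14. The call of *ATHB4* held in each of 17 alternatives that kept the threshold on adjusted p alone. Those of *ATHB2* and *HAT3* were lost in 6 and 4 of them, among them the fit of the 6 libraries alone and the fits without Col-0 replicate 1, Col-0 replicate 2 or *hfr1-101* replicate 3.

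HLH proteins that lack a DNA-binding domain of their own, and act by sequestering other bHLH factors as HFR1 does, were represented by *PAR1* (PHY RAPIDLY REGULATED 1). Its level was 7.86, 11.3 and 10.3 CPM in Col-0 and 15.9, 18.6 and 21.6 CPM in *hfr1-101*, with no overlap (log2FC 0.93, SE 0.18, edgeR adjusted p = 0.0217). In HRFR it stood at 1.42 CPM in Col-0 and 1.40 CPM in *hfr1-101*. Its call was lost in 7 of the 17 alternatives, among them those without any 1 of the 3 Col-0 libraries or without *hfr1-101* replicate 2 or 3. The wider list of HLH inhibitors and partners of PIFs had 12 tested genes, not all of which are inhibitors. Of these, 10 had a log2FC above 0 (median 0.22). Only *PAR1* was called, against 0.139% of all tested genes called higher. *PAR2*, its closest relative, had a log2FC of 0.39 (edgeR adjusted p = 0.361), and *PIL1* had 0.48 (adjusted p = 0.369), with 31.6, 28.9 and 51.0 CPM in Col-0 and 44.0, 50.1 and 60.9 CPM in *hfr1-101*, where the groups overlapped through Col-0 replicate 3.

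None of the 9 tested PIF genes and close relatives was called, against 0.177% of all tested genes, so that no call says little for so few genes. Their log2FC lay between -0.13 and 0.09, with a median of -0.02. *PIF7*, the main PIF of the shade response, stood at 27.1, 26.5 and 31.9 CPM in Col-0 and at 26.3, 31.1 and 33.5 CPM in *hfr1-101*. *PIF4* stood at 74.5, 65.7 and 82.5 CPM in Col-0 and at 68.9, 74.9 and 77.4 CPM in *hfr1-101*. In both genes the groups overlapped, and the 1 h difference was within the spread of the libraries.

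Some brassinosteroid, gibberellin and auxin genes were called, each higher in *hfr1-101*. *BIM1*, whose bHLH protein pairs with BES1 in brassinosteroid signalling and which also counts among the shade markers, stood at 236, 252 and 301 CPM in Col-0 and at 346, 422 and 443 CPM in *hfr1-101* (log2FC 0.62, SE 0.08, edgeR adjusted p = 0.00011). In HRFR the mean was 63.4 CPM in both genotypes. *BEH4*, a homologue of BES1, stood at 23.0, 24.8 and 29.0 CPM in Col-0 and at 32.9, 39.1 and 38.8 CPM in *hfr1-101* (log2FC 0.53, edgeR adjusted p = 0.00448). In HRFR *BEH4* had a log2FC of -0.05, so that both genes differed between the genotypes by less than 0.1 before shade and did not overlap after 1 h of it. *BEH4* overlaps *TBL42* on the same strand, and reads of the shared stretch cannot be told apart.

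*DWF4*, which encodes the C-22 hydroxylase of brassinosteroid synthesis, had a log2FC of 0.42 (edgeR adjusted p = 0.0391). It stood at 24.1, 28.0 and 26.9 CPM in Col-0 and at 32.2, 39.0 and 34.7 CPM in *hfr1-101*, and its call was lost in 9 of the 17 alternatives. *DWF4* was the one gene called of 15 tested for brassinosteroid synthesis and inactivation (median 0.04). *BIM1* was the one called of 15 for brassinosteroid signalling (median 0.08). Both counts stand beside 0.139% of all tested genes called higher. *GID1A*, a gibberellin receptor, stood at 12.2, 13.4 and 14.0 CPM in Col-0 and at 16.1, 20.4 and 18.7 CPM in *hfr1-101* (log2FC 0.48, edgeR adjusted p = 0.00716). The 8 tested DELLA and GID1 genes encode the repressors and receptors of this hormone. Of the 8, *GID1A* was the one called, against 0.139% of all tested genes called higher, and 7 had a log2FC above 0 (median 0.24).

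*ARF18*, an auxin response factor, stood at 22.1, 25.2 and 28.0 CPM in Col-0 and at 36.9, 37.0 and 38.7 CPM in *hfr1-101* (log2FC 0.58, edgeR adjusted p = 0.00013). It was called in each of the 17 alternatives except the fit of the 6 libraries alone. It was the one gene called of 21 tested auxin response factors and receptors, against 0.139% of all tested genes called higher. Of the 21, 12 lay below 0 (median -0.0086). None of the 27 tested Aux/IAA genes, 61 SAUR genes, 10 GH3 and DAO genes or 23 auxin transport genes was called, with medians of 0.08, 0.09, 0.06 and 0.0053. *YUC9*, which encodes an enzyme of auxin synthesis, lay just outside the threshold (log2FC 0.76, SE 0.16, edgeR adjusted p = 0.0503), and none of the 17 tested genes of auxin synthesis was called (median 0.03). It stood at 23.1, 25.1 and 33.7 CPM in Col-0 and at 35.7, 53.2 and 49.8 CPM in *hfr1-101*. *CRF10*, an AP2/ERF factor of the cytokinin response factor group, had a log2FC of 0.41 (edgeR adjusted p = 0.00716), with 31.3, 31.2 and 32.7 CPM in Col-0 and 39.4, 42.9 and 43.8 CPM in *hfr1-101*. It was a member of no cytokinin list here. None of the 6 tested cytokinin oxidases or 9 type-A response regulators was called, against 0.177% of all tested genes (medians -0.02 and 0.01). The calls of *BEH4*, *GID1A* and *CRF10* were lost in 5, 5 and 6 of the 17 alternatives, in each case including those without Col-0 replicate 1 or *hfr1-101* replicate 2 or 3.

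*ST2A* (AT5G07010), which encodes a sulfotransferase that inactivates hydroxylated jasmonate, showed the largest difference among the shade genes. It stood at 9.59, 9.39 and 13.5 CPM in Col-0 and at 21.5, 32.7 and 37.1 CPM in *hfr1-101* (log2FC 1.5, SE 0.21, edgeR adjusted p = 0.000508), after 1.21 and 1.31 CPM in HRFR. At LRFR 25 h, where 53 genes (0.254%) were called, 37 higher (0.177%) and 16 lower (0.0766%), it was again higher, at 61.5 CPM against 13.8 CPM (log2FC 2.15). Along with *ATHB4* and *ATHB2* it was one of 3 genes called at both times of LRFR and not in HRFR. The other 18 of the 21 were called at LRFR 1 h alone. In 8 of these the genotypes did not overlap at LRFR 25 h either, on the same side, among them *PAR1* (log2FC 0.87 at LRFR 25 h), *BIM1* (0.36), *AT5G03090* (2.17) and *AT1G67105* (0.97). *GID1A* and *BEH4*, with -0.07 and 0.05, were among the other 10. The share of all tested genes without overlap at LRFR 25 h was not worked out, so 8 of 18 has no background here.

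**Figure D2:**
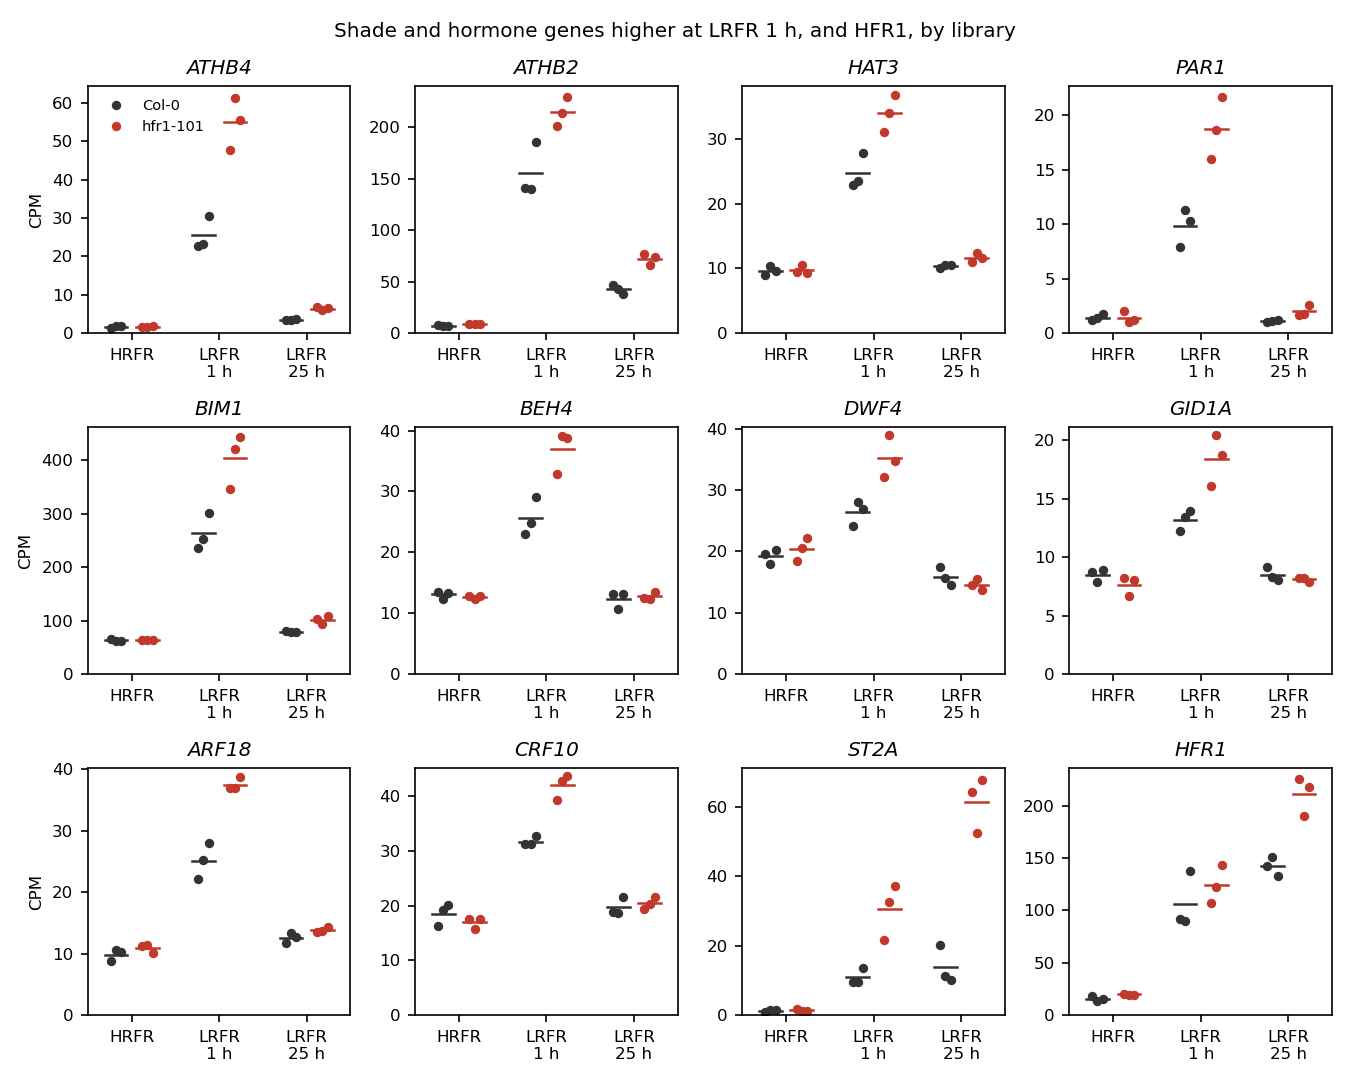
CPM (y axis, from 0) of 11 shade and hormone genes called higher at LRFR 1 h, and of *HFR1*, in HRFR and after 1 h and 25 h of LRFR. Points are single libraries of Col-0 (black) and *hfr1-101* (red), and bars are group means over 3 libraries. At LRFR 1 h the red points lie above the black ones in the 11 genes and overlap with them for *HFR1*.

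Of 17 shade markers tested, 4 were called (*ATHB4*, *PAR1*, *BIM1* and *ATHB2*), all higher, against 0.139% of all tested genes. A further 4 did not overlap between the genotypes without being called (*YUC9*, *PAR2*, *XTH15* and *FHL*), which makes 8 of 17 without overlap against 14.1% of all tested genes. The median log2FC of the 17 was 0.39 at LRFR 1 h, beside 0.08 in HRFR and 0.69 at LRFR 25 h, and 15 of them lay above 0 at LRFR 1 h. *IAA29* and *IAA19*, auxin-inducible repressors, had 0.33 and 0.24, and *CKX5*, a cytokinin oxidase, had 0.10 (edgeR adjusted p = 0.894). *GA20OX1*, an enzyme of gibberellin synthesis, had -0.17. The mean level of the list, relative to the Col-0 mean, was -0.14, -0.09 and 0.23 (log2) in the Col-0 libraries and 0.19, 0.49 and 0.55 in the *hfr1-101* libraries, so that Col-0 replicate 3 lay above *hfr1-101* replicate 1. Only 1 of the 17, *ATHB4*, was called in each of the 17 alternatives, and 1 was called when only the 6 libraries were fitted.

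The direct PIF7 targets that the study lists as upregulated by shade, chosen partly on the same Col-0 libraries and taken here without *HFR1*, came to 176 genes. Of these, 11 were called higher, against 0.139% of all tested genes, and none lower. Its median log2FC was 0.16, and 160 of its genes lay above 0. The list is not independent evidence of a direction. The Col-0 and *pif457* libraries at LRFR 1 h both entered its choice, and the Col-0 ones are also the controls here. Side by side with the *pif457* libraries at LRFR 1 h, which share those controls, *ATHB4* stood at 25.5 ± 4.44 CPM in Col-0, 54.9 ± 6.88 CPM in *hfr1-101* and 2.79 ± 0.167 CPM in *pif457* (SD, n = 3). *BIM1* stood at 263 ± 33.6, 404 ± 51.3 and 68.3 ± 3.08 CPM (SD, n = 3) in the same order. *PAR1* stood at 9.80 ± 1.75, 18.7 ± 2.84 and 1.23 ± 0.209 CPM (SD, n = 3). For these 3 genes the order of the genotypes was *pif457*, Col-0, *hfr1-101*. This order was fixed by their choice and is no result of its own. All 3 belong to the list, chosen as higher in Col-0 than in *pif457*, and all 3 were called higher in *hfr1-101*.

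Beside the shade genes, most members of some other lists also had a log2FC above 0, with none called, against 0.177% of all tested genes. Of 16 tested genes of dark and sugar starvation, 15 had a log2FC above 0 (median 0.25) and 8 did not overlap between the genotypes, against 14.1% of all tested genes, led by *DIN2*, a beta-glucosidase (log2FC 1.57, edgeR adjusted p = 0.356), and *SEN1* (1.47, adjusted p = 0.0674). The summed level of the starvation genes was 506.4 to 570.5 CPM in Col-0 and 637.6 to 701.4 CPM in *hfr1-101*. Their mean log2 level did not overlap either (-0.15 to 0.10 and 0.41 to 0.56). Of 29 genes of handling, touch, heat and cold stress, 25 lay above 0 (median 0.30) and 9 did not overlap, against the same 14.1%. Their summed level overlapped, with 478 to 536 CPM in Col-0 and 511 to 640 CPM in *hfr1-101*. Their mean log2 level did not (-0.12 to 0.10 and 0.13 to 0.42). The part of either list in the shade gene differences was not tested.

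The summed level of 26 root markers was 524 to 571 CPM in Col-0 and 588 to 714 CPM in *hfr1-101*, with no overlap. Their mean log2 level, which weighs the 26 alike, did overlap (-0.06 to 0.08 and -0.0033 to 0.17). Of the 26, 18 had a log2FC above 0 and 8 had a log2FC below it, with the lowest at -1.68, and none was called. The 12 mesophyll markers summed to 68070 to 86470 CPM and 70190 to 75130 CPM. The summed level of 20 markers of dividing cells was 176 to 271 CPM and 152 to 222 CPM, and all 20 had a log2FC below 0 without a call. In whole seedlings fewer cells of a type and less RNA per cell cannot be told apart. Of the 20 light-harvesting genes, 26 chlorophyll synthesis genes and 22 clock genes tested, none was called, with medians of -0.0024, -0.05 and 0.05. Among the 22 clock genes 19 had a log2FC above 0. The mean log2 level of the clock list did not overlap (-0.04 to 0.04 in Col-0 and 0.09 to 0.10 in *hfr1-101*), while those of the other 2 lists did. With 0.177% of all tested genes called, most lists of the sizes given here would hold no call. All 16 aliphatic glucosinolate genes had a log2FC below 0 (median -0.26), none called, and the 2 groups of libraries overlapped in 14 of them.

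**Figure D3:**
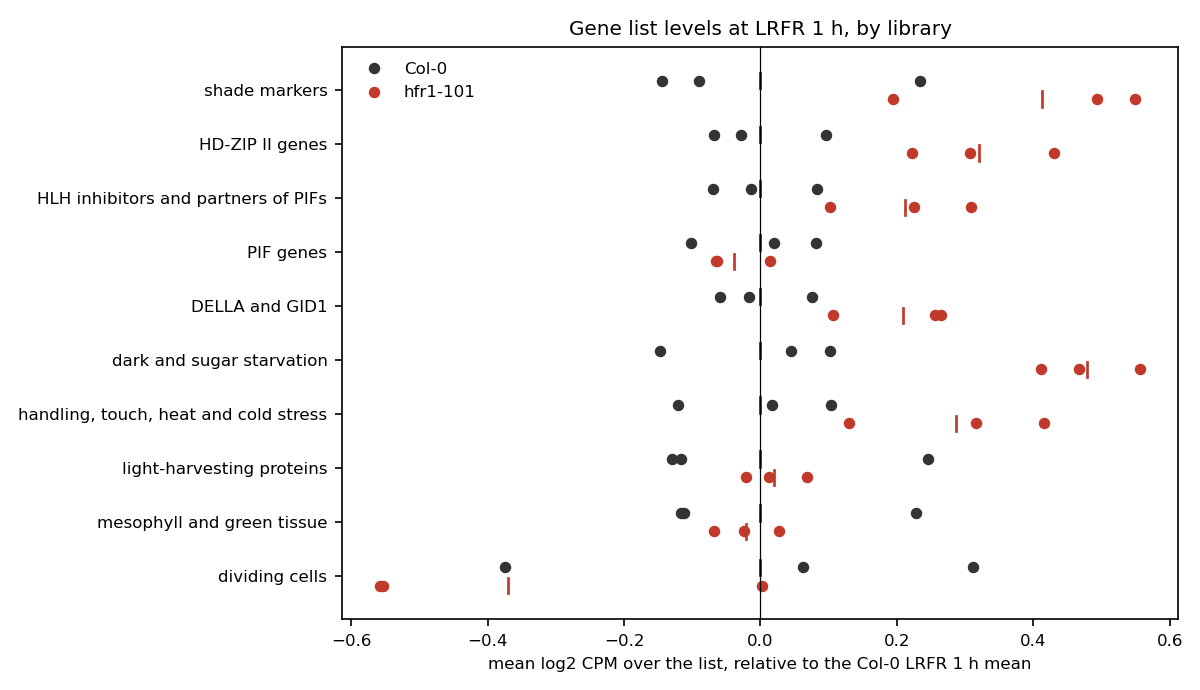
Mean log2 CPM over the genes of each list, relative to the Col-0 mean at LRFR 1 h (x axis), for 10 lists (rows). Points are the 3 Col-0 (black) and 3 *hfr1-101* (red) libraries at LRFR 1 h, and short bars are group means. The groups are apart for HD-ZIP II genes, from -0.07 to 0.10 in Col-0 and from 0.22 to 0.43 in *hfr1-101*. They are farther apart for dark and sugar starvation, from -0.15 to 0.10 and from 0.41 to 0.56. They are also apart for the HLH list, for DELLA and GID1 and for handling, touch, heat and cold stress. They overlap for the shade markers, the PIF genes and the other lists drawn.

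The test of whether the genotype difference at LRFR 1 h differed from that in HRFR called no gene (edgeR, 0% of those tested, with 513 genes at an unadjusted p below 0.05), as did limma-voom, while DESeq2 called 4. The 4 were *BIM1*, *CRF10*, *ATHB4* and *GID1A*, which also had the smallest edgeR p-values, all with an adjusted p of 0.165 and chosen here after their values were seen. For *ATHB4* the difference of differences was 1.11 (SE 0.21) in edgeR and 1.12 (SE 0.24, adjusted p = 0.0308) in DESeq2. For *BIM1* it was 0.62 (SE 0.11) in edgeR and 0.62 (SE 0.12, adjusted p = 0.0096) in DESeq2. A gene that is called in one light condition and not in the other is thus not shown to differ between them by the edgeR test. For *ATHB2* the value was 0.13 (SE 0.15), beside a log2FC of 0.34 in HRFR.

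Since PIFs bind the G-box (CACGTG) and the PBE-box (CATGTG, or CACATG on the other strand), the stretch from 250 bases before to 50 bases after each annotated start was searched for these letters on both strands. CACGTG stood in 1 of the 29 windows of genes called higher (3.45%) and in none of the 8 called lower, against 8.69% of 20772 tested genes with a window. CATGTG or CACATG stood in 1 of 29 (3.45%) and 1 of 8 (12.5%), against 13.0% of all. The windows that held one among the higher genes belonged to *BEH4*, with CACGTG beginning 226 and 152 bases before the start, and to *AT2G39870*, an uncharacterised gene (log2FC 0.59, edgeR adjusted p = 0.0113), with CACATG or CATGTG beginning 43 bases before it. They are shown here beside the window of *ATHB4*, which held neither, the shade gene with the firmest call, so that the windows with and without the motifs can be read side by side. Each runs 5′ to 3′ on the strand of the gene over the 250 bases before the start (RefSeq, TAIR10.1), and capitals mark the motifs. The positions are chr1:29599099-29599348 (plus strand), chr2:16643131-16643380 (plus strand) and chr2:18519732-18519981 (minus strand).
BEH4: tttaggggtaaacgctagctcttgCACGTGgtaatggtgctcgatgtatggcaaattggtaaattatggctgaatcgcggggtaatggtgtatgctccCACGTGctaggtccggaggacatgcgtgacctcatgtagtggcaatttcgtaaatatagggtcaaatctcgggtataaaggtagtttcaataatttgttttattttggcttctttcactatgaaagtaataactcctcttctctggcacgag
AT2G39870: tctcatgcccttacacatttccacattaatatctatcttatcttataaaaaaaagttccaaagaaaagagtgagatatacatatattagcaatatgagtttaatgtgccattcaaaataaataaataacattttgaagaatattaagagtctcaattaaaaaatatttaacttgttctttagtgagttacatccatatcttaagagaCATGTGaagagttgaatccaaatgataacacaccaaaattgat
ATHB4: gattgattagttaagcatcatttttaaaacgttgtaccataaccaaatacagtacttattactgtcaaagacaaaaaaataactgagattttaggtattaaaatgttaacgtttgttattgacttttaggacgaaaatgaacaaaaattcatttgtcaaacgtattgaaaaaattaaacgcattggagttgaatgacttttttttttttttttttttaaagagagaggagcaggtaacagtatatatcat
These letters cover the stretch nearest to the start and say nothing of sites farther away.

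The set of 16 genes that differed in HRFR too was made up of 11 higher and 5 lower in *hfr1-101*, and 15 of them were called in all 3 light conditions, 10 higher and 5 lower. They made up 43.2% of the calls at LRFR 1 h and 94.1% of those in HRFR. Across all light conditions 22 genes had every one of the 9 *hfr1-101* libraries on one side of every one of the 9 Col-0 libraries, 16 higher and 6 lower, and 17 of these 22 were among the 37 called at LRFR 1 h. That the side is the same in each light condition for these 22 genes follows from how they were chosen.

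*MRD1* (AT1G53480, mto 1 responding down 1, chromosome 1, 19963047 to 19964712, minus strand) led this set. The 3 Col-0 libraries at LRFR 1 h held 2 reads of it in all (0, 0 and 0.0857 CPM), and the *hfr1-101* libraries held 1580 (20.3, 20.1 and 19.1 CPM), a ratio of 799 with an exact 95% interval of 221 to 6600 for counting error only (edgeR adjusted p = 5.01e-14). Its neighbour *HEI10*, a RING protein of meiotic crossover formation, is read from the opposite strand and overlaps it. *AT1G07887*, on the strand of *HEI10*, overlaps both genes, and *MUM4*, on the other strand, overlaps *HEI10*. *HEI10* stood at 1.46, 1.16 and 0.986 CPM in Col-0 and at 3.16, 3.30 and 2.35 CPM in *hfr1-101* (log2FC 1.28, edgeR adjusted p = 0.00448). The libraries were made with a stranded kit, but the strand setting of the counting is not given in the sources used here. Reads of *MRD1* and *HEI10* therefore cannot be told apart with certainty. Reads of the stretch that *HEI10* shares with *AT1G07887* on the same strand cannot be told apart under any strand setting. *AT5G03090*, a second gene annotated as an mto 1 responding down protein, on another chromosome, had 48 reads against 3 (ratio 16.2, 95% interval 5.21 to 81.2, edgeR adjusted p = 0.00358), and none of its stretches of 50 bases occurs elsewhere in the genome. It was not called in HRFR (log2FC 1.32, edgeR adjusted p = 0.55).

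*QQS*, a gene found in Arabidopsis alone that is known to affect starch content, stood at 0.408, 0.144 and 0.514 CPM in Col-0 and at 10.1, 3.60 and 6.10 CPM in *hfr1-101* (log2FC 4.22, SE 0.41, edgeR adjusted p = 1.09e-06). The groups were far apart although the *hfr1-101* libraries also differed among themselves. *D2HGDH*, which encodes a mitochondrial D-2-hydroxyglutarate dehydrogenase, stood at 6.09, 5.34 and 5.23 CPM in Col-0 and at 13.7, 16 and 16.5 CPM in *hfr1-101*, a log2FC of 1.47 that was 1.36 in HRFR and 1.48 at LRFR 25 h. The non-coding RNA *AT2G01422* had no read in the 3 Col-0 libraries and 165 reads in those of *hfr1-101*, at least 55.6-fold higher against a floor of 3 reads over the group. For *AT4G04223*, another non-coding RNA (log2FC 1.63), 71.5% of the 50-base stretches occur elsewhere in the genome, so that its reads are uncertain.

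The other higher genes of this set have no well-described function. *AT5G26270*, an uncharacterised protein gene, stood at 14.9, 15.2 and 18.9 CPM in Col-0 and at 39.8, 46.0 and 52.3 CPM in *hfr1-101*, with no overlap. *AT5G15360*, also uncharacterised, stood at 0.510, 0.397 and 1.11 CPM in Col-0 and at 8.09, 7.08 and 7.85 CPM in *hfr1-101* (log2FC 3.54, edgeR adjusted p = 2.07e-07). *AT4G10695*, annotated as CDC68-like, had a log2FC of 3.31 at a mean below 2 CPM in both genotypes. All 3 were called in each of the 17 alternatives. The non-coding RNAs *AT3G05955* and *AT2G05995* had 4.33 and 2.83, and the first of them had 66 reads against 3 (ratio 22.2, 95% interval 7.29 to 111). *AT2G05995* was the one gene of the 16 not called at LRFR 25 h, and its call was lost in 5 of the 17 alternatives.

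Of the 5 lower genes, 4 were nearly without reads in *hfr1-101*. *AT1G64795* stood at 16.3, 18.1 and 16.1 CPM in Col-0 and at 0.110, 0.330 and 0.239 CPM in *hfr1-101* (log2FC -6.19, SE 0.34, edgeR adjusted p = 1.59e-10). *AT1G75945*, also an uncharacterised protein gene, had a log2FC of -5.47, *AT3G05170*, annotated as a phosphoglycerate mutase family gene, had -4.21, and *AT3G26115*, annotated as a pyridoxal phosphate-dependent enzyme, had -3.44. *AT4G13500*, with 69.0, 73.0 and 82.9 CPM in Col-0 and 41.2, 41.5 and 42.3 CPM in *hfr1-101*, had -0.85. Of the genes of this set, *AT1G64795*, *D2HGDH*, *AT3G05170* and *AT5G26270* overlap a gene on the opposite strand, as *MRD1* does. The 5 lower genes were called in each of the 17 alternatives, as were 15 of the 37 in all.

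The 37 called genes lay on all 5 chromosomes, from 0.124% of the tested genes of chromosome 5 to 0.244% of those of chromosome 3, and chromosome 1, which holds *HFR1*, had 9 of them (0.163%).

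**Figure D4:**
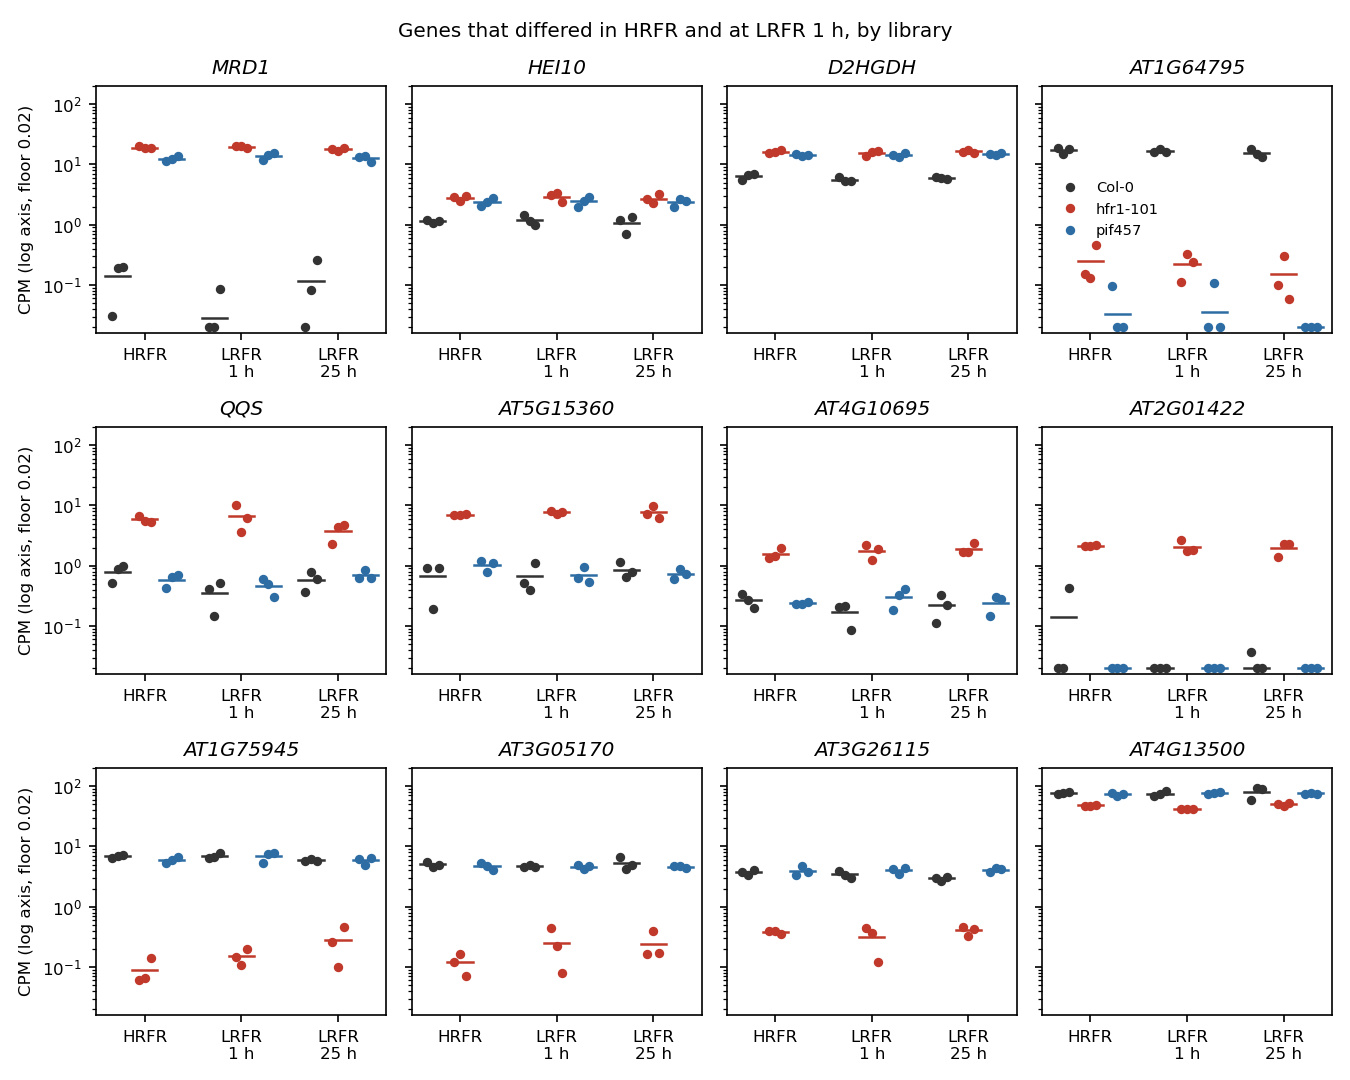
CPM (y axis, logarithmic, values under 0.02 drawn at 0.02) of 12 of the 16 genes called in HRFR and at LRFR 1 h, in the 3 light conditions. Points are single libraries of Col-0 (black), *hfr1-101* (red) and *pif457* (blue), and bars are group means. In the top row, with *MRD1*, *HEI10*, *D2HGDH* and *AT1G64795*, the blue points lie beside the red ones, and in the panels of the other 8 genes they lie beside the black ones.

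Among the 3 genes called lower at LRFR 1 h and not in HRFR, *PDC3*, a pyruvate decarboxylase, stood at 4.35, 5.38 and 2.31 CPM in Col-0 and at 2.17, 0.844 and 0.837 CPM in *hfr1-101* (log2FC -1.65, edgeR adjusted p = 0.0156). Its value in HRFR was -1.51 (adjusted p = 0.079), close to that at LRFR 1 h. *LpxD1*, annotated as a trimeric LpxA-like enzyme, had -1.42 and *AT3G22980*, annotated as an elongation factor G family gene, had -0.30, and the calls of these 3 genes were lost in 6, 6 and 7 of the 17 alternatives, in each case including those without Col-0 replicate 2 or *hfr1-101* replicate 3. The remaining genes called higher, *AT1G67105*, *AT4G14548*, *AT1G01670*, *AT1G04000* and *BRG3*, a RING protein, had a log2FC of 1.40, 0.92, 2.33, 0.39 and 0.33. The call of *AT1G01670*, with at most 0.598 CPM in any of the 6 libraries, was lost in 11 of the 16 alternatives that tested it, the most of the 37 genes.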

How the data were processed

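The data were deposited as 1 table of read counts per gene. The authors extracted RNA from pooled seedlings, made Stranded mRNA Prep libraries, trimmed the reads with Cutadapt, removed ribosomal and low-complexity reads, mapped what remained with STAR (TAIR10) and counted reads per gene with HTSeq, and the deposited counts were not normalized. Of versions and the strand setting, the sources used here give none. Lines for reads not assigned to a single gene, such as ambiguous reads (6.15 to 7.09% of reads for all such lines), were left out of totals and tests. Gene symbols and positions came from RefSeq's TAIR10.1 annotation, which matched 20773 of the 20887 tested genes.

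Genes were kept with filterByExpr, scaled by TMM (factors 0.926 to 1.09) and tested with edgeR 4.0.16 (R 4.3.3) in 1 fit of 9 group means over 27 libraries (18 residual degrees of freedom). The common biological coefficient of variation was 0.0943. The groups share replicate numbers, which were tested as a block among the alternatives. Other alternatives were RLE scaling, no scaling, 2 other filters, DESeq2 1.42.0, limma-voom (limma 3.58.1), fewer libraries, a log2FC threshold of 0.6 and leaving out each library. Counts were also simulated for this comparison (20824 genes tested), with 50 genes changed per fold. Of these, 44% were recovered at 1.3-fold, 68% at 1.5-fold, 96% at 2-fold and 98% at 4-fold. Genes of few reads were not among those changed, and noise was drawn for each gene and library separately. Of 160 calls, 7 were of unchanged genes. More genes were called than the 37 in the data, which eases the adjusted p, so that recovery in the data may be lower.

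Named were *HFR1* and its 5 neighbours on either side, the 15 highest and 15 lowest called genes of at least 1 CPM without overlap, all shade markers, HLH inhibitors and PIF genes, and up to 4 called or 2 uncalled members of other lists. Called genes beyond this rule were named after their values were seen. The members and lists were chosen with earlier results of these data known. Libraries came from separate pools of seedlings grown alike, so p-values measure the spread between these pools.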

Additional observations from a re-analysis of the deposited data

Results flagged for a closer look

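In 4 of the 16 genes called in HRFR and at LRFR 1 h, the 3 *pif457* libraries at LRFR 1 h, which take no part in the comparison, lay on the same side of the 3 Col-0 libraries as the *hfr1-101* libraries did. Over all tested genes 9.68% had the *pif457* libraries above those of Col-0 and 9.47% below. In 2 of the 16 the *pif457* libraries lay on the opposite side, *AT4G04223* with 0.133 CPM beside 1.84 CPM in Col-0 and 5.67 CPM in *hfr1-101*, and *AT5G26270* with 12.8 CPM beside 16.3 and 46.0 CPM. *MRD1* had a mean of 14.0 ± 2.09 CPM in *pif457* (SD, n = 3), beside 0.0286 CPM in Col-0 and 19.8 CPM in *hfr1-101*. *D2HGDH* had 14.3 ± 0.936 CPM in *pif457*, beside 5.55 CPM in Col-0 and 15.4 CPM in *hfr1-101*. *HEI10*, which overlaps *MRD1*, had 2.45 ± 0.427 CPM in *pif457*, beside 1.2 CPM in Col-0 and 2.94 CPM in *hfr1-101*. *AT1G64795* had 0.0358 ± 0.062 CPM in *pif457*, beside 16.8 CPM in Col-0 and 0.227 CPM in *hfr1-101*. In HRFR the *pif457* means of these genes were 12.5, 14.2, 2.38 and 0.0326 CPM in the same order. Both mutant lines were compared with the same Col-0 libraries, so that for the 4 genes a difference carried by the mutant lines and one carried by the Col-0 seedlings cannot be told apart.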

How the results depend on the processing

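For LRFR 1 h the calls were 56 (46 higher) with DESeq2, of which 36 were among the 37, 20 (15 higher, 5 lower) in the fit of 6 libraries, 19 higher above a log2FC of 0.6, 5 lower in the fit of 18 libraries, and 111 (99 higher) without replicate 1 of Col-0 in HRFR and replicate 1 of Col-0 at LRFR 25 h, an alternative chosen after seeing the data. Leaving out each library in turn gave 21 to 55 calls, 15 to 47 higher and 5 to 12 lower. In HRFR 8 lower genes were called with DESeq2 and 8 without the 2 libraries that stood apart. For LRFR 25 h the calls were 86 (58 higher, 28 lower) with DESeq2, 13 (9 higher, 4 lower) in the fit of 6 libraries and 8 lower in that of 18 libraries, and leaving out each library gave 35 to 68, 28 to 49 higher and 7 to 19 lower. The interaction had 2 calls with no scaling, 4 with DESeq2, 1 without the 2 libraries that stood apart, and 0 to 3 when each library was left out (3 without *hfr1-101* LRFR 1 h replicate 1, 2 without Col-0 LRFR 1 h replicate 3 and 1 without Col-0 HRFR replicate 1), all higher. Called shade markers numbered 1 in the fit of 6 libraries, 2 in that of 18 and 2 to 5 when each library was left out, called HD-ZIP II genes 1 in the fit of 6, 1 above a log2FC of 0.6 and 1 to 3 when each was left out, and called HLH genes 0 in the fits of 6 and of 18 libraries, 2 without the libraries that stood apart and 0 to 2 when each was left out. The HLH median moved between 0.137 and 0.389 (log2) when each was left out. The cause was not tested in any of these.

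The correlations of the deviations of Col-0 and *hfr1-101* libraries with the same replicate number were 0.32, 0.0089 and 0.20 at LRFR 1 h and -0.25, -0.055 and 0.04 in HRFR. Not every pair was above 0.1 and the labels name nothing shared by a number, so the numbers were not taken to pair the samples, although at LRFR 1 h 2 of the 3 *hfr1-101* libraries correlated best with their own number. With the replicate number as a block in the fit of 27 libraries 39 genes were called at LRFR 1 h, 36 of them among the 37. With the block in the fit of 6 libraries 671 were called (510 higher, 161 lower), with 13 shade markers and 4 HLH genes, and in HRFR 7 (3 higher). No called gene changed direction under any alternative, and 15 of the 37 stayed called under all that kept the threshold on adjusted p alone. Depth limits genes of few reads, such as *AT1G01670*.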
